A study of Mus musculus with 30 samples.

Results

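The 6 libraries compared here are bulk RNA-seq of wild-type multipotent progenitors from mouse bone marrow, 3 of the population labelled MPP1 and 3 of the population labelled MPP4. The libraries were assigned to the 2 groups by their labels, not by any measured value. They are 6 of the 30 samples of the series and 6 of its 24 bulk libraries. The comparison itself and the gene lists were chosen with earlier results of these data known. The series profiles haematopoietic stem cells (HSC), MPP1, MPP2 and MPP4 from mice with and without Mettl3, the catalytic subunit of the enzyme that writes N6-methyladenosine (m6A) on messenger RNA. The other 6 samples are single-cell libraries and were not used here.

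Both groups carry loxP-flanked Mettl3 alleles (Mettl3 fl/fl) without Cre, so Mettl3 is intact, and both were sampled 3 weeks after pIpC, a double-stranded RNA that induces interferon and is used to switch on Mx1-Cre. The controls therefore received pIpC too, and no group without it is compared. MPP1 cells were sorted as Lin-, Sca1+, c-Kit+, CD150-, CD48-, and MPP4 cells as Lin-, Sca1+, c-Kit+, CD150-, CD48+, so that the 2 gates differ in CD48 alone. The labelled gate lists no Flt3, the receptor by which MPP4 is separated from other CD48+ progenitors in many schemes. The 3 replicates of a population came from 3 different mice. The labels give no age, sex or strain background, and do not say whether 1 mouse gave several populations.

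In the mouse marrow, the Lin-, Sca1+, c-Kit+ compartment holds the stem cells and the multipotent progenitors that descend from them. CD48-negative cells of this compartment divide rarely and keep much of the stem cell programme, whereas CD48-positive cells divide more often and begin to transcribe genes of single lineages. MPP4 is the subset known for lymphoid priming, in which Rag1, Il7r and other genes of early lymphocytes are switched on before lineage choice.

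Read depth was even across the comparison. The 6 libraries held 29045705 to 42123802 counts and 14889 to 15674 detected genes, and the ribosomal precursor gene Rn45s took 1.65% to 3.61% of the counts. Levels are given in CPM, the counts of a gene scaled to a common library size. Pearson correlations of log2 CPM were 0.923 to 0.966 within MPP1, 0.953 to 0.968 within MPP4 and 0.868 to 0.911 between the populations. Mettl3 was at 36.5, 31.6 and 36.7 CPM in MPP1 replicates 1, 2 and 3 and at 32.6, 34.3 and 31.5 CPM in MPP4, against 11.9 to 12.7 CPM in Mettl3-deleted MPP1 and 17.6 to 22.4 CPM in Mettl3-deleted MPP4. Of the 18 tested genes of the m6A machinery (writers, erasers and readers), 0 changed between WT MPP1 and WT MPP4 by edgeR in the fit of all 24 libraries, 2 at an unadjusted p below 0.05 (19.5% of all genes) and none by DESeq2 (9.24% of all genes). Their median log2 difference was 0.10.

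Cd48 RNA, whose protein defined the gates, was at 31.4, 21.4 and 19.3 CPM in MPP1 and at 225, 167 and 163 CPM in MPP4. This 7.71-fold difference was set by the sort and is no finding. Slamf1, which encodes CD150, was low in both CD150-negative gates, at 3.42, 2.10 and 2.80 CPM in MPP1 and 0.560, 0.764 and 1.62 CPM in MPP4 (adjusted p = 0.12, and 0.035 with replicate number as a block, in a range of 0.035 to 0.38 over all alternatives). Kit and Ly6a, which encode c-Kit and Sca1, were above 200 CPM in all 6 libraries, from 221 CPM for Kit and from 1065 CPM for Ly6a. Neither passed the test (adjusted p = 0.22 and 0.51), although Kit, 2.08-fold higher in MPP1 with no overlap, passed when the 6 libraries were fitted alone (0.014) and with quality weights (0.015), in a range of 0.014 to 0.48 over all alternatives.

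Between WT MPP1 and WT MPP4, 721 of 15545 tested genes (4.64%) changed at an adjusted p under 0.05 in edgeR's quasi-likelihood test with Benjamini-Hochberg adjustment, 292 higher in MPP1 (1.88% of all tested) and 429 lower (2.76%). The MPP1-high genes held regulators and surface proteins of stem cells, and the MPP1-low genes held lymphoid, B-lineage and cell division genes. The losses were deeper than the gains, with a median log2 change of 1.25 among the genes higher in MPP1 and -1.64 among those lower, against 0.04 over all genes tested. A change of 8-fold or more was fitted for 16 of the higher genes and 139 of the lower genes. Of the genes called, 36 had no count in any MPP1 library and 3 had none in any MPP4 library. In 719 of the 721 the 2 groups of libraries did not overlap, the exceptions being Ephb4 and Aldh1l2, which were picked out after their values were seen. Among all genes tested, 33.0% did not overlap. By DESeq2 9.24% of all genes were called, and by edgeR 19.5% had an unadjusted p below 0.05. With replicate number as a block, edgeR called 916 of 15545 genes, 390 higher and 526 lower. Leaving out any 1 of the 6 libraries brought the count down to 382, 326 and 393 (without MPP1 replicate 1, 2 or 3) and to 284, 391 and 395 (without MPP4 replicate 1, 2 or 3), and 200 of the 721 genes, 57 higher and 143 lower, were called in all 6 of these fits. In bulk RNA, fewer cells of a type and less RNA per cell cannot be told apart, and this holds for each gene below.

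**Figure D1:**
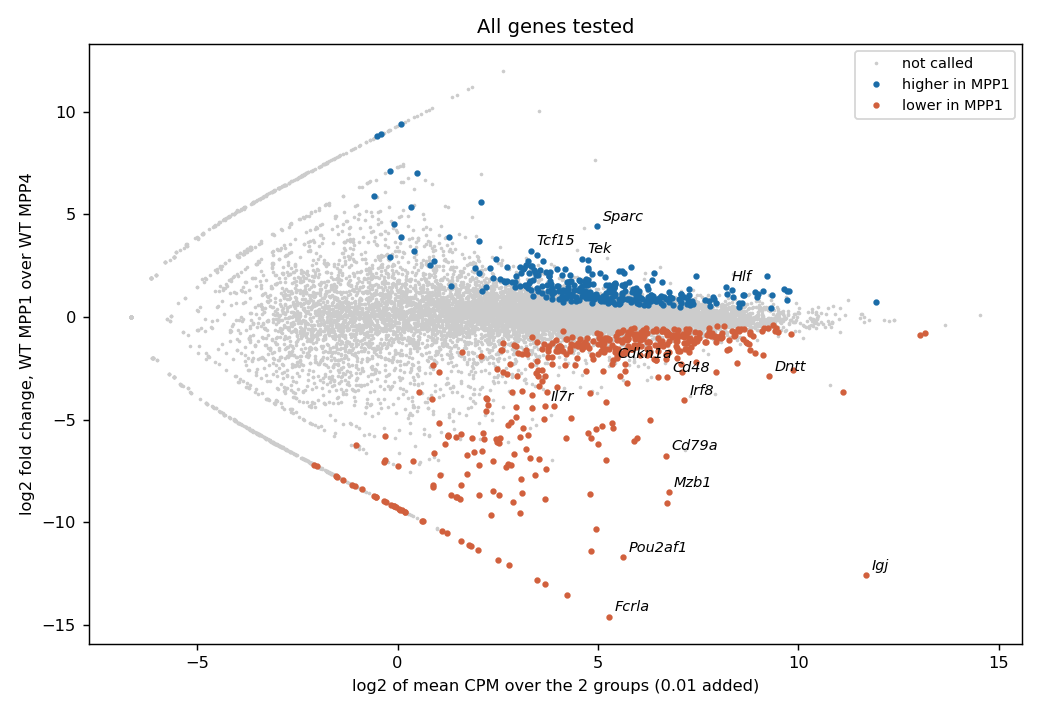
Each point is 1 of the 15545 genes tested, with the log2 of its mean CPM over both groups on the x axis and its log2 fold change, WT MPP1 over WT MPP4, on the y axis. The 292 genes called higher in MPP1 (blue) mostly lie within a narrow band above 0, whereas the 429 called lower (orange) reach the fitted -14.59 of Fcrla, a gene with no count in MPP1.

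Transcription factors of the stem cell programme were higher in MPP1. Of 20 listed stem cell regulators, 9 were higher and 0 lower (1.88% and 2.76% of all genes), with a list median of 1.08 against 0.04 over all genes. Hlf, a bZIP factor that marks stem cells (chr11:90336536-90390895, minus strand, GRCm38), was at 487, 420 and 383 CPM in MPP1 and at 116, 157 and 195 CPM in MPP4. Its lowest MPP1 library was thus well above its highest MPP4 library. The log2 change was 1.46 ± 0.21 (approximate SE from the fit of all 24 libraries, adjusted p = 5.0e-04). Mecom, which encodes the zinc-finger factor Evi1 (chr3:29951296-30548008), was at 54.3, 36.4 and 50.0 CPM against 6.88, 14.3 and 12.2 CPM, a log2 change of 2.07 ± 0.34 (adjusted p = 0.0011).

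Tcf15, a bHLH factor of quiescent stem cells (chr2:152143561-152149097), had the largest change on this list. It was at 27.5, 14.5 and 12.1 CPM in MPP1 and at 0.640, 3.19 and 1.92 CPM in MPP4, so the groups were far apart at low levels (log2 change 3.23 ± 0.51, adjusted p = 8.3e-04). Prdm16, a zinc-finger regulator of stem cell maintenance, was 2.80-fold higher, at 103 to 117 CPM in MPP1 and 27.6 to 48.5 CPM in MPP4 (adjusted p = 0.0017). Its counts were even numbers in every library, which was true of 166 genes with a mean of 100 counts or more, 11 of them called, and whose cause was not tested. Kit, Ly6a and Sparc, a gene named below, were also among the 166. Meis1, Gata2, Tal1, Mllt3 and Nkx2-3, transcriptional regulators of stem and progenitor cells, completed the 9, with log2 changes of 1.29, 1.11, 1.04, 0.87 and 1.62. Runx1 and Erg, which are transcribed across the compartment, differed by 0.07 and 0.39 on the log2 scale and did not pass (adjusted p = 0.83 and 0.42). The number of regulators called moved with the libraries, to 5, 4 and 6 without MPP1 replicate 1, 2 or 3 and to 4, 4 and 8 without MPP4 replicate 1, 2 or 3.

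Surface proteins and other marker genes of stem cells went the same way. Of 21 listed, 9 were higher in MPP1 (1.88% of all genes) and 0 lower, with a median log2 difference of 1.05, and all 21 had a positive difference. The list also held markers that are not surface proteins, such as Fgd5, which was among those called. Procr, which encodes the endothelial protein C receptor EPCR (chr2:155751117-155755471), was at 77.7, 87.1 and 75.5 CPM in MPP1 and at 12.3, 18.3 and 20.9 CPM in MPP4. The 3 libraries of each group lay close together and the groups were 4.67-fold apart (log2 change 2.22 ± 0.29, adjusted p = 1.9e-04). Esam, an endothelial cell adhesion molecule that stem cells share (chr9:37528078-37538319), was at 113, 65.1 and 66.1 CPM against 22.3, 16.8 and 15.8 CPM, a log2 change of 2.15 ± 0.26 (adjusted p = 6.6e-05).

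Tie1, an orphan receptor tyrosine kinase, was 3.22-fold higher in MPP1 (log2 change 1.69 ± 0.30, adjusted p = 0.0025). Tek, the angiopoietin receptor, was at 51.3, 43.9 and 33.3 CPM in MPP1 and at 2.32, 12.6 and 2.98 CPM in MPP4 (log2 change 2.84 ± 0.68, adjusted p = 0.019). The call on Tek was lost without MPP1 replicate 1 or 2 (adjusted p = 0.060 and 0.053) and without MPP4 replicate 1 or 3 (0.11 and 0.096), within a range of 1.9e-04 to 0.11 over all alternatives. Endothelial cells carry Tek, Tie1, Esam and Procr too. The 11 tested endothelial markers had a median log2 difference of 2.32, against 0.04 over all genes, and 8 of the 11 were positive. None of the 11 was called by edgeR (4.64% of all genes). At an unadjusted p below 0.05, 5 were higher in MPP1 (19.5% of all genes in either direction), and 3 were called by DESeq2 (9.24%). Lyve1 had no count in either group. The summed level of the listed markers was 654 to 879 CPM in MPP1 and 763 to 900 CPM in MPP4, most of it Egfl7, at 545 to 721 CPM and 643 to 790 CPM. Their part in the stem cell marker result was not tested. Cd34, a sialomucin of progenitor cells, had a log2 difference of 0.12 (adjusted p = 0.85). The list gave 7, 6 and 7 calls without MPP1 replicate 1, 2 or 3 and 4, 8 and 5 calls without MPP4 replicate 1, 2 or 3.

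**Figure D2:**
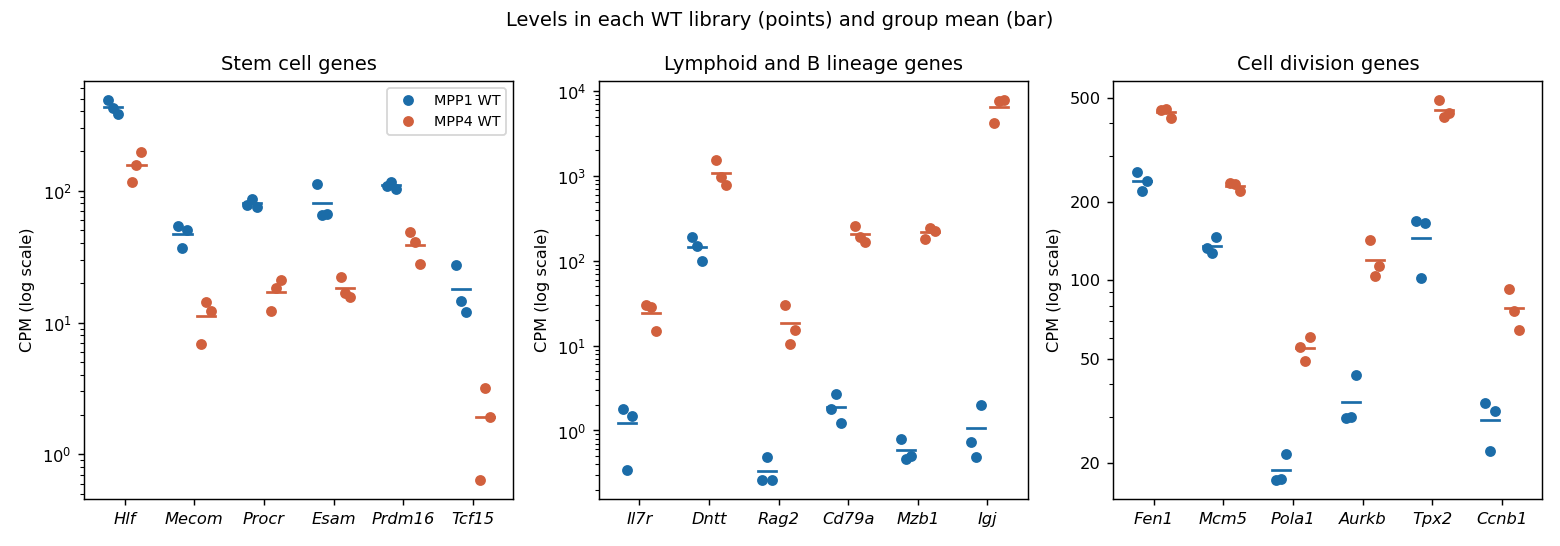
CPM on a log axis for 18 genes in the 3 WT MPP1 (blue) and 3 WT MPP4 (orange) libraries, with 1 point per library and a bar at the group mean. All 18 were picked from the 721 genes called, of which 719 do not overlap between the groups. Hlf is at 383 to 487 CPM in MPP1 and 116 to 195 CPM in MPP4, and Igj is at 0.488 to 1.97 CPM in MPP1 and 4172 to 7858 CPM in MPP4.

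The largest changes were chosen among called genes whose groups did not overlap, at 10 CPM or more in the higher group. The 12 largest gains included Sparc, Tcf15, Fgd5, Tek, Tgm2, Mamdc2, Hgfac, Aldh1a1, Fstl1, Eps8l2 and Phlda2. Tgm2, a protein cross-linking transglutaminase, was at 32.3, 54.4 and 53.8 CPM in MPP1 and 8.35, 5.51 and 6.66 CPM in MPP4 (log2 change 2.77 ± 0.46, adjusted p = 0.0013). Phlda2, an imprinted gene, averaged 14.0 ± 2.75 CPM (SD, n = 3) against 2.61 ± 0.733 CPM (log2 change 2.42 ± 0.39, adjusted p = 0.0010). Tcf15, Tgm2 and Phlda2 were called in every alternative run.

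Sparc, a matrix protein of stromal cells, had the largest fitted gain but the least even libraries. It was at 143, 19.6 and 18.7 CPM in MPP1 and at 3.47, 4.80 and 0.199 CPM in MPP4, so MPP1 replicate 1 stood apart. The log2 change of 4.41 ± 1.13 (adjusted p = 0.028) lost its call without MPP1 replicate 1 (0.18) and without MPP4 replicate 1, 2 or 3 (0.11, 0.061 and 0.095), the range over all alternatives being 9.5e-04 to 0.18. The summed level of the listed stromal markers was also highest in MPP1 replicate 1, at 232 CPM, against 80.4 and 35.3 CPM in the other MPP1 libraries and 25.6 to 44.8 CPM in MPP4. Of the stromal markers, Lepr, Col3a1 and Adipoq had no count in MPP4 and Bglap had none in MPP1. The 9 tested had a median log2 difference of 3.97, and none of them was called by edgeR (4.64% of all genes). At an unadjusted p below 0.05, 4 were higher (19.5% of all genes in either direction), and 2 were called by DESeq2 (9.24%). The part of the stromal markers in the result was not tested. Aldh1a1, a retinaldehyde dehydrogenase, and Eps8l2, an actin regulator, each lost their call in all 6 fits that left out a library, with adjusted p of up to 0.17 for both. Fgd5, Mamdc2, Hgfac and Fstl1 lost theirs in 1 or 2 of those fits: Fgd5 without MPP1 replicate 1 (0.055) or MPP4 replicate 1 (0.069), Mamdc2 and Fstl1 without MPP4 replicate 1 (0.059 and 0.064), and Hgfac without MPP4 replicate 2 or 3 (0.067 and 0.079). Over all alternatives these 4 ranged from 5.8e-05 to 0.069, 1.1e-04 to 0.059, 7.4e-05 to 0.064 and 2.0e-04 to 0.079.

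Of the lists compared, that of the B lineage had the lowest median. Of its 20 genes, 15 were lower in MPP1 (2.76% of all genes) and 0 higher, with a median log2 difference of -5.46, and leaving out any 1 library kept 14 or 15 calls. Cd79a, the signalling chain of the B-cell receptor (chr7:24897381-24902197), was at 1.77, 2.71 and 1.21 CPM in MPP1 and at 261, 193 and 166 CPM in MPP4. Every MPP4 library was thus far above every MPP1 library (log2 change -6.76 ± 0.38, adjusted p = 8.7e-10). Mzb1, an endoplasmic reticulum protein of B cells and plasma cells, was at 0.789, 0.463 and 0.499 CPM against 181, 241 and 227 CPM (log2 change -8.55 ± 0.54, adjusted p = 5.5e-09).

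Blnk, the adaptor that links the B-cell receptor to downstream kinases (chr19:40928927-40994535), was detected in both groups, at 4.99, 3.63 and 3.26 CPM in MPP1 and 100, 59.0 and 49.4 CPM in MPP4 (log2 change -4.14 ± 0.39, adjusted p = 3.4e-06). Pou2af1, a B-cell coactivator of octamer-binding factors (chr9:51213708-51240080), had 3 counts over the MPP1 libraries and 74.7, 127 and 94.3 CPM in MPP4, a ratio of 3739 with a counting interval of 1279 to 18132. Fcrla, an Fc receptor-like protein of B cells (chr1:170917576-170927583), had no count in MPP1 and was at 57.7, 88.8 and 84.5 CPM in MPP4, which is at least 2890-fold lower in MPP1, taking a floor of 3 counts over the group. Igj, which encodes the joining chain of polymeric antibodies, was at 0.723, 0.488 and 1.97 CPM in MPP1 and at 4172, 7682 and 7858 CPM in MPP4 (log2 change -12.58 ± 1.75, adjusted p = 3.2e-04). It was thus detected in every MPP1 library, at a level far below that of every MPP4 library.

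The B-lineage transcription factors and the surrogate light chain were lower as well. These were picked out after their values were seen. Ebf1, which specifies the B lineage, had a log2 change of -5.15 (adjusted p = 0.0028), Igll1 and Vpreb1, the chains of the surrogate light chain, had -6.02 (adjusted p = 5.3e-05) and -5.29 (adjusted p = 4.4e-06), and all 3 were called in each fit without 1 library. Pax5, which fixes B-cell identity, had 1 count over MPP1 and a mean of 0.942 CPM in MPP4. Btk, a kinase that other blood lineages share, and Cd72, a B-cell coreceptor, did not pass, with log2 differences of 0.09 and -0.04.

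Genes of plasma cells were given beside these, since such cells carry Igj and Mzb1. Of 9 tested plasma cell markers, 4 were lower in MPP1 (2.76% of all genes) and 0 higher, and the summed level of the listed markers was 306 to 366 CPM in MPP1 and 864 to 1275 CPM in MPP4. Xbp1, a factor of the secretory programme with counts that were even in every library, was 3.61-fold lower (log2 change -1.85 ± 0.27, adjusted p = 4.1e-04). Irf4 was at 0 to 0.190 CPM in MPP1 and 12.9 to 27.8 CPM in MPP4, and Tnfrsf17, the receptor BCMA, at 0 to 0.146 CPM and 16.9 to 32.2 CPM. None of the plasma cell markers was at 0 in a whole group, and their part in the result was not tested.

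The antigen-receptor recombination genes split by tissue range. Rag1, Rag2 and Dntt, which lymphocyte precursors alone transcribe strongly, were lower in MPP1, and the 5 listed joining factors that all cells use were not called. Rag2 (chr2:101624718-101632529) was at 0.263, 0.488 and 0.261 CPM in MPP1 and at 29.8, 10.6 and 15.4 CPM in MPP4 (log2 change -5.76 ± 0.74, adjusted p = 1.4e-04). Rag1, its partner in the recombinase, was at 0.131, 0.0732 and 0.0475 CPM against 6.88, 3.98 and 3.12 CPM (log2 change -5.78 ± 0.73, adjusted p = 1.1e-04). Dntt, the template-independent polymerase that adds junctional nucleotides (chr19:41029275-41059525), was well expressed in both populations, at 193, 149 and 99.5 CPM in MPP1 and 1525, 978 and 779 CPM in MPP4 (log2 change -2.89 ± 0.51, adjusted p = 0.0025). The 3 genes were called in every alternative run.

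Among surface proteins of lymphoid progenitors, 5 of 16 were lower in MPP1 (2.76% of all genes) and 0 higher, with a median of -0.80. Il7r, the interleukin-7 receptor (chr15:9505788-9530176), was at 0.341 to 1.81 CPM in MPP1 (mean 1.22 ± 0.773, SD) and at 29.9, 28.9 and 14.8 CPM in MPP4 (log2 change -4.34 ± 0.63, adjusted p = 6.3e-04). Ly6d, which marks lymphoid progenitors biased to B cells (chr15:74762056-74763620), was at 0.0986, 0.414 and 0.618 CPM against 202, 220 and 215 CPM (log2 change -9.07 ± 1.03, adjusted p = 3.3e-05). Both genes were detected in every MPP1 library, and the groups did not overlap for either.

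Flt3, the cytokine receptor that marks lymphoid-primed progenitors, did not pass the test. It was at 341, 370 and 324 CPM in MPP1 and at 398, 413 and 413 CPM in MPP4, so the groups did not overlap but lay close together, and the log2 difference was -0.24 ± 0.41 (adjusted p = 0.80). Cd52, a glycoprotein of lymphocytes, fell by 2.91 on the log2 scale (adjusted p = 0.016). Cd52 lost its call without MPP1 replicate 1, 2 or 3 (0.054, 0.077 and 0.071), the range over all alternatives being 8.2e-06 to 0.077. The list as a whole gave 2, 3 and 2 calls without MPP1 replicate 1, 2 or 3 and 3, 3 and 4 without MPP4 replicate 1, 2 or 3.

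Of 19 listed lymphoid transcription factors, 3 were lower in MPP1 (2.76% of all genes) and 0 higher, with a median of -0.20. Ikzf3, the Ikaros family member Aiolos (chr11:98464902-98546031), had no count in MPP1 and was at 15.6, 33.4 and 27.7 CPM in MPP4, at least 960-fold lower in MPP1. Spib, an Ets factor of B cells and plasmacytoid dendritic cells, was at 0.119 to 0.197 CPM in MPP1 and 3.71 to 11.5 CPM in MPP4 (log2 change -5.65 ± 1.13, adjusted p = 0.0066). Id2, an inhibitor of E proteins, fell by 2.64 on the log2 scale (adjusted p = 0.015). Its call was lost without MPP1 replicate 1, 2 or 3 (0.058, 0.078 and 0.054) and without MPP4 replicate 3 (0.050), within 1.1e-04 to 0.078 over all alternatives. Ikzf1, Tcf3, Notch1 and Satb1 were not called, with log2 differences of -0.09, -0.20, -0.39 and -0.98. The number called was 2 or 3 in each fit without 1 library.

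Of 18 tested T-cell and natural killer genes, 8 were lower in MPP1 (2.76% of all genes) and 0 higher, with a median of -4.10, and 6 of the 18 had no count in MPP1. Their summed level was 239 to 275 CPM in MPP1 and 528 to 607 CPM in MPP4. Klrd1, a natural killer receptor, had no count in MPP1 and 7.01, 10.3 and 6.99 CPM in MPP4 (at least 308-fold lower in MPP1). Cd2, an adhesion receptor of T and natural killer cells, had none in MPP1 and 4.69, 6.33 and 6.80 CPM in MPP4 (at least 222-fold). Tcf7, a T-lineage factor, was at 0.0657, 1.07 and 0.475 CPM in MPP1 and 8.61, 13.7 and 4.18 CPM in MPP4 (log2 change -4.02 ± 0.82, adjusted p = 0.0071). The MPP4 levels of these 3 genes were all under 14 CPM. Calls on the list numbered 3, 4 and 4 without MPP1 replicate 1, 2 or 3 and 4, 6 and 6 without MPP4 replicate 1, 2 or 3. Of the defining surface markers of mature lymphocytes, Ms4a1 (CD20) was at 0 to 0.119 CPM in MPP1 and 10.7 to 22.1 CPM in MPP4, and Cd3e, Cd3g and Cd8a had no count in MPP1. Their part in the B-lineage and T-lineage results was not tested.

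The 12 largest losses, chosen among called genes without overlap at 10 CPM or more in MPP4, included Fcrla, Ikzf3, Igj and Pou2af1. The others were 8 genes outside the lists above, namely Cd40, Cacna1s, Amica1, Prlr, Chst1, Slamf7, Hepacam2 and Cacna1h. Cd40, a costimulatory receptor of antigen-presenting cells, had no count in MPP1 and was at 23.7, 27.5 and 60.2 CPM in MPP4 (at least 1347-fold lower in MPP1). Slamf7, a receptor of the CD48 family on lymphoid and plasma cells (chr1:171632403-171653035), was at 0.0329, 0.0975 and 0 CPM in MPP1 and 44.9, 66.2 and 72.6 CPM in MPP4 (log2 change -10.35 ± 0.83, adjusted p = 3.2e-07). Cacna1s, Amica1 and Prlr also had no count in MPP1, at least 836-fold, 506-fold and 426-fold lower. Prlr lost its call without MPP1 replicate 2 or 3 (0.057 and 0.053, in a range of 3.4e-06 to 0.057), and Cacna1h lost it in 5 of the 6 fits without 1 library (0.064 to 0.11, in a range of 0.0042 to 0.11), all but the fit without MPP4 replicate 1.

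2 marker lists were written after these values were seen and are given as levels. Calls among them are no test, even beside the share of all genes, because the genes were picked with these values known. Of 7 tested plasmacytoid dendritic cell markers, Siglech, Cox6a2 and Bhlhe41 were lower in MPP1 (2.76% of all genes), Siglech being at 0 to 0.296 CPM in MPP1 and 7.23 to 14.6 CPM in MPP4. The summed level of the 8 listed was 292, 271 and 278 CPM in MPP1 and 439, 484 and 409.6 CPM in MPP4. Most of it was Tcf4, at a mean of 195 CPM in MPP1 and 253 CPM in MPP4, and Bst2, at 75.0 and 117 CPM. Neither of these 2 was called by edgeR (adjusted p = 0.34 and 0.20). Of 7 basophil and mast cell markers, Mcpt8, Prss34, Prg3 and Cpa3 were lower, and the summed level of the 7 was 1.05, 9.97 and 13.8 CPM in MPP1 and 282, 148 and 791 CPM in MPP4. The part of these markers in the B-lineage result was not tested.

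Cell division genes were lower in MPP1. Of 28 listed genes of G1 and S phase, 12 were lower and 0 higher (2.76% and 1.88% of all genes), with a median of -0.82, and of 24 listed genes of G2 and M phase, 14 were lower and 0 higher, with a median of -1.43. Every member of both lists had a negative log2 difference. The promoters of 4 of them are shown because these genes carry, within 250 bases before and 50 bases after the RefSeq start, letters known from cell cycle promoters: TTTGGCGC, an E2F site, in Pola1 and Mcm5, and CCAAT (the NF-Y box) and TTTGAA (the core of the CHR element) in Cenpf and Mki67. Capitals mark the matches, on either strand, of the motif or motifs named here for that gene, and a motif named for the other genes is left in lower case where it occurs, as CCAAT is in Pola1 and Mcm5. The sequences are from RefSeq on GRCm38.p6, written in the direction of the gene. The windows are chrX:93632106-93632405 (minus strand) for Pola1, chr8:75109259-75109558 (plus strand) for Mcm5, chr1:189688037-189688336 (minus strand) for Cenpf and chr7:135716330-135716629 (minus strand) for Mki67.
Pola1: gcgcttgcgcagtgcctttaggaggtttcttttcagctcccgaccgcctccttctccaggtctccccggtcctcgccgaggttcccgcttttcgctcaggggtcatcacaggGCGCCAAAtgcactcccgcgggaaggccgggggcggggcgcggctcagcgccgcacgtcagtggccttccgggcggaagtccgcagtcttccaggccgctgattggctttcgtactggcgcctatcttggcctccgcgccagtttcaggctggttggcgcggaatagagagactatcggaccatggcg
Mcm5: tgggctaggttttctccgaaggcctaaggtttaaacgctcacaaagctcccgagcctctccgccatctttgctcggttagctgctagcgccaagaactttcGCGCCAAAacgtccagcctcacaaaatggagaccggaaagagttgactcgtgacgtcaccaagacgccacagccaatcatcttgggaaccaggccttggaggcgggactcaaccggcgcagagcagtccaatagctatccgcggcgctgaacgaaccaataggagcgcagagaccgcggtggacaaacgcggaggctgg
Cenpf: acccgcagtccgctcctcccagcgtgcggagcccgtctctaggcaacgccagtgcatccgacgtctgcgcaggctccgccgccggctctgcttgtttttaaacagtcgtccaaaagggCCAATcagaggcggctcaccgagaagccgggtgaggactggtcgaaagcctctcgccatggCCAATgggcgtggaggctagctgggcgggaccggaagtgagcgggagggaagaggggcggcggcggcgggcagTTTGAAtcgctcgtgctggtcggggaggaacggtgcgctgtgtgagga
Mki67: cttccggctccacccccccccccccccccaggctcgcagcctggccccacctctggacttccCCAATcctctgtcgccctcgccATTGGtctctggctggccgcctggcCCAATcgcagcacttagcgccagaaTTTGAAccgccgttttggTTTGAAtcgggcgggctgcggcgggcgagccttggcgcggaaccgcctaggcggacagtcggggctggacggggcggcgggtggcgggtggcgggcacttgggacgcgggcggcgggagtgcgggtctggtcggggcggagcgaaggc
TTTGGCGC on either strand was in 5 of 23 matched G1/S promoters, 3 of them among the 11 matched genes that were lower, and in 0.537% of 27025 RefSeq promoters. The other E2F form searched, TTTCCCGC, was in 3 of 23, none of them among the genes that were lower, and in 1.11% of all. CCAAT was in 19 of 21 matched G2/M promoters, 12 of 13 among the lower genes, against 37.9% of all promoters, and TTTGAA was in 15 of 21, 8 of 13 among the lower, against 18.1%. TTTGAA and CCAAT do not overlap in letters. The EBF palindrome was searched in the B-lineage promoters and was in 1 of 16, that of Cd22, and in 0.914% of all promoters. A match describes these letters in this window and no match says no more than that they are not there.

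In the G1/S group, Pola1, the catalytic subunit of the primase-bound DNA polymerase alpha, was at 17.3, 17.4 and 21.7 CPM in MPP1 and at 55.6, 49.3 and 60.8 CPM in MPP4 (log2 change -1.56 ± 0.20, adjusted p = 1.1e-04). Fen1, the flap endonuclease that trims Okazaki fragments (chr19:10199132-10204169), was at 259, 220 and 240 CPM against 449, 453 and 417 CPM, a small change with tight replicates (log2 change -0.87 ± 0.13, adjusted p = 6.3e-04). Mcm5, a subunit of the replicative helicase, was 127 to 146 CPM in MPP1 and 220 to 236 CPM in MPP4 (log2 change -0.76 ± 0.15, adjusted p = 0.0063). The other helicase subunits Mcm2, Mcm3, Mcm4, Mcm6 and Mcm7 had log2 differences of -0.36, -0.62, -0.26, -0.20 and -0.58 and did not pass. Uhrf1, which maintains DNA methylation at the fork and whose counts were even in every library, fell by 1.08 on the log2 scale (adjusted p = 0.0039). The calls numbered 6, 4 and 8 without MPP1 replicate 1, 2 or 3 and 5, 8 and 7 without MPP4 replicate 1, 2 or 3.

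The G2/M genes had the more negative median. Aurkb, the kinase of the chromosomal passenger complex (chr11:69045647-69051664), was at 29.7, 29.9 and 43.4 CPM in MPP1 and 143, 104 and 113 CPM in MPP4 (log2 change -1.80 ± 0.35, adjusted p = 0.0051). Tpx2, a spindle assembly factor, was at 168, 102 and 166 CPM against 489, 420 and 437 CPM (log2 change -1.63 ± 0.32, adjusted p = 0.0057). Ccnb1, the mitotic cyclin B1, fell by 1.41 (adjusted p = 0.0072). Each of these was clearly present in MPP1, below its level in every MPP4 library.

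Cenpf, a kinetochore protein, was at 23.7, 22.8 and 16.6 CPM in MPP1 and 87.1, 68.4 and 68.4 CPM in MPP4 (log2 change -1.83 ± 0.39, adjusted p = 0.0090), and its call was lost without MPP1 replicate 3 (0.051, in a range of 8.5e-05 to 0.051). Mki67, the proliferation marker, fell by 1.66 on the log2 scale (96.8, 48.6 and 45.8 CPM in MPP1, 195 to 211 CPM in MPP4, adjusted p = 0.011), and its call was lost without MPP1 replicate 2 or 3 (0.065 and 0.064, in a range of 1.7e-05 to 0.065). The list gave 9, 4 and 5 calls without MPP1 replicate 1, 2 or 3 and 5, 7 and 10 without MPP4 replicate 1, 2 or 3, whereas 23 of 24 were called by DESeq2 (9.24% of all genes).

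A list of 17 genes linked to quiescence held inhibitors of division and also the D cyclins, which promote it. Of the 17, 2 were higher in MPP1 and 1 lower (4.64% of all genes in either direction). The median of this mixed list was 0.07, and 9 had a positive and 8 a negative difference. Cdkn1a, the cyclin-dependent kinase inhibitor p21 (chr17:29090976-29100727), was lower in MPP1, at 16.8, 9.36 and 15.6 CPM against 92.8, 48.9 and 60.9 CPM (log2 change -2.28 ± 0.35, adjusted p = 7.4e-04). Cdkn1c, the related inhibitor p57, went the other way, at 22.4, 54.6 and 54.3 CPM in MPP1 and 17.8, 10.8 and 14.8 CPM in MPP4 (log2 change 1.60 ± 0.34, adjusted p = 0.0093). Its call was lost without MPP1 replicate 2 or MPP4 replicate 2 (0.052 and 0.055, in a range of 2.4e-04 to 0.055). Txnip, an inhibitor of thioredoxin, rose by 1.27 (adjusted p = 0.013) and lost its call without MPP1 replicate 3 or MPP4 replicate 1 (0.060 and 0.079, in a range of 1.6e-04 to 0.079). Without 1 library the list kept 2 or 3 of its 3 calls, 2 without MPP1 replicate 2 or 3 or MPP4 replicate 1 or 2.

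Of 22 listed growth genes, targets and partners of Myc, 1 was higher in MPP1 and 2 lower (4.64% of all genes in either direction), with a median of -0.33. The one that was higher was Mycn itself, a Myc family factor (chr12:12936093-12941914), at 128, 119 and 133 CPM in MPP1 and 27.6, 29.2 and 51.0 CPM in MPP4 (log2 change 1.82 ± 0.28, adjusted p = 6.4e-04). Myc differed by 0.14 on the log2 scale (adjusted p = 0.75). Rcc1, the exchange factor of the Ran GTPase, and Pa2g4, a growth regulator, had log2 changes of -0.72 and -0.61 (adjusted p = 0.022 and 0.043). Rcc1 lost its call in 4 fits without 1 library (without MPP1 replicate 2 or 3 or MPP4 replicate 1 or 2, range over alternatives 0.0015 to 0.17). Pa2g4 lost its call in 5 (all but that without MPP1 replicate 2) and, among other alternatives, with replicate number as a block (0.053, range 0.0054 to 0.19). Calls on the list came to 2, 2 and 1 without MPP1 replicate 1, 2 or 3 and to 1, 1 and 2 without MPP4 replicate 1, 2 or 3.

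**Figure D3:**
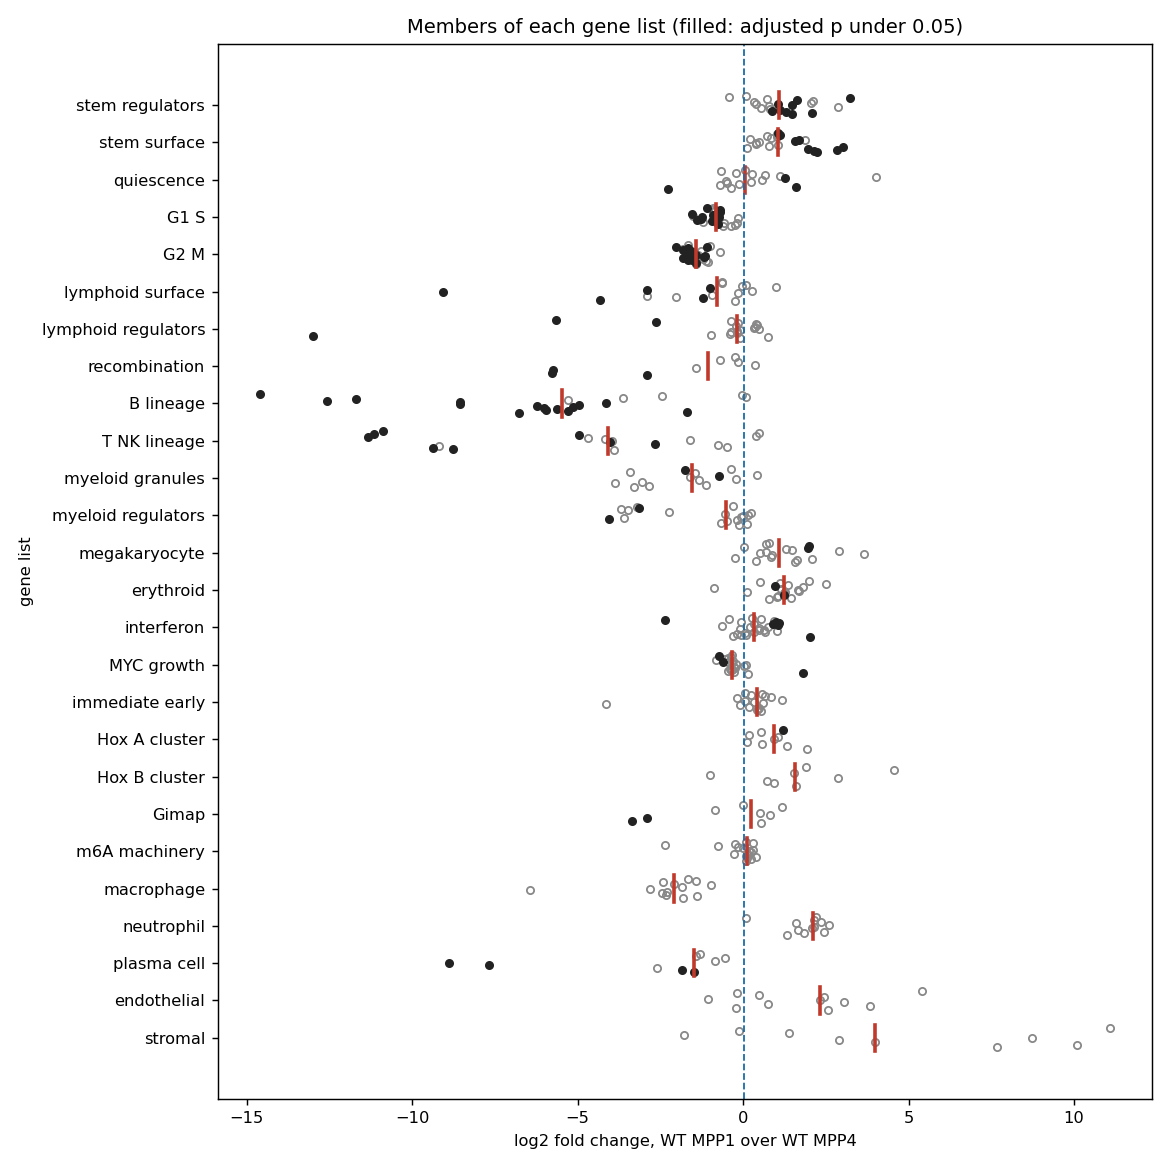
Log2 fold change, WT MPP1 over WT MPP4, on the x axis for each tested member of 26 gene lists on the y axis, with filled points for members called, a red bar at each list's median and a dashed line at the median of all genes, 0.04. The B lineage list lies furthest to the left, with a median of -5.46, while the G1/S and G2/M lists form narrow groups at -0.82 and -1.43.

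Of 14 genes listed for myeloid granules and their precursor cells, 2 were lower in MPP1 (2.76% of all genes) and 0 higher (median -1.53). These 2 were Plac8 and Calr, which do not encode granule proteins. Of 18 myeloid regulators and receptors 2 were lower and 0 higher (median -0.51). Irf8, which directs monocyte and dendritic cell fate and is also used in B cells (chr8:120736358-120756694), was at 25.5, 11.4 and 11.6 CPM in MPP1 and at 280, 231 and 291 CPM in MPP4 (log2 change -4.05 ± 0.39, adjusted p = 4.4e-06). Mpo, the myeloperoxidase of granulocyte precursors, was at 327, 205 and 433 CPM against 3655, 2273 and 3634 CPM. These groups did not overlap, yet Mpo did not pass the test (log2 difference -3.31 ± 1.07, adjusted p = 0.085). It did pass with replicate number as a block (log2 change -3.37 ± 0.53, adjusted p = 0.0014, in a range of 9.7e-04 to 0.23 over all alternatives). With the block, 9 of the 14 genes of the granule list and 4 of 18 regulators were lower, against 526 of 15545 genes tested.

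Ccr2, Plac8 and Calr had adjusted p of 0.049, 0.014 and 0.019. Ccr2, a monocyte chemokine receptor, lost its call in 5 fits without 1 library, all but that without MPP1 replicate 1, and in the fit of the 6 libraries alone (range over alternatives 0.0027 to 0.18). Plac8, a small protein of myeloid and lymphoid progenitors, lost it without MPP1 replicate 1, 2 or 3 or MPP4 replicate 1 (range 1.1e-04 to 0.063), and Calr, an endoplasmic reticulum chaperone, in all but the fit without MPP1 replicate 2 (range 8.1e-04 to 0.080). The granule list then held 0, 1 and 0 calls without MPP1 replicate 1, 2 or 3 and 0, 1 and 1 without MPP4 replicate 1, 2 or 3, and the regulator list 2, 1, 1, 1, 1 and 1 in the same order.

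Markers of mature myeloid cells varied from library to library. The summed level of 13 macrophage markers was 527, 94.4 and 92.1 CPM in MPP1 and 2216, 319 and 210.5 CPM in MPP4, with MPP4 replicate 1 highest. The summed level of the listed neutrophil granule markers was 1019, 633 and 4516 CPM in MPP1 and 53.6, 26.4 and 1582 CPM in MPP4, with replicate 3 highest in both populations. By edgeR in the fit of 24 libraries none of the 13 macrophage or 12 neutrophil markers was called (4.64% of all genes). The counts were 1 and 0 at an unadjusted p below 0.05 (19.5% of all genes) and 1 and 0 by DESeq2 (9.24%). None of these markers was at 0 in a whole group. Their median log2 differences were -2.08 and 2.11. With replicate number as a block, 7 macrophage markers were lower in MPP1, against 526 of 15545 genes tested. Among them was the complement gene C1qa (log2 change -2.94 ± 0.46, adjusted p = 0.0013, in a range of 0.0013 to 1.0 over all alternatives). Their part in the myeloid values was not tested.

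Megakaryocyte and erythroid genes lay on the positive side in MPP1. Of 18 tested megakaryocyte genes 2 were higher (1.88% of all genes) and 0 lower (median 1.09), Pdzk1ip1 among them, and of 20 erythroid genes 2 were higher and 0 lower (median 1.23), namely Car2 and Nfe2. Pdzk1ip1, a membrane cargo protein, was at 268, 267 and 296 CPM in MPP1 and 59.9, 67.2 and 80.5 CPM in MPP4 (log2 change 2.00 ± 0.41, adjusted p = 0.0074). Car2, a carbonic anhydrase, was 2.38-fold higher (log2 change 1.25 ± 0.21, adjusted p = 0.0018). Nfe2, a factor of platelet formation, was 1.97-fold higher (log2 change 0.97 ± 0.20, adjusted p = 0.0072). The mature lineage genes Pf4 and Itga2b did not pass, with log2 differences of 1.56 and 0.40. Without MPP4 replicate 1, 3 megakaryocyte genes were called, and without MPP1 replicate 3, 3 erythroid genes, each count otherwise staying at 2 in the fits without 1 library.

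Interferon-stimulated genes, listed because all mice had received pIpC, had a median of 0.33 over 27 genes, with 5 higher in MPP1 and 1 lower (1.88% and 2.76% of all genes). Ifit1, an RNA-binding antiviral protein (chr19:34640871-34650009), was at 17.7, 19.8 and 16.8 CPM in MPP1 and at 4.96, 4.88 and 3.45 CPM in MPP4 (log2 change 2.03 ± 0.30, adjusted p = 5.2e-04), and was called in each fit without 1 library. Its relatives Ifit2 and Ifit3 had differences of -0.30 and 0.09 and were not called. Isg15, Mx1 and Irf7, widely used readouts of an interferon response, had log2 differences of -0.07, -0.18 and -0.10 and did not pass. Ifi27l2a went the other way from Ifit1, at 8.22, 4.44 and 4.99 CPM in MPP1 and 29.4, 26.8 and 34.4 CPM in MPP4 (log2 change -2.36 ± 0.62, adjusted p = 0.032), and lost its call in all 6 fits without 1 library (range over alternatives 3.5e-05 to 0.13). The list gave 2, 1 and 3 calls without MPP1 replicate 1, 2 or 3 and 1, 1 and 3 without MPP4 replicate 1, 2 or 3.

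In the HoxA cluster 1 of 9 tested genes was higher in MPP1 by edgeR and 0 were lower. In the Gimap cluster 2 of 8 were lower and 0 higher (1.88% of all genes higher and 2.76% lower). Hoxa10, 1 of 9 tested HoxA genes, was at 78.9, 90.1 and 93.1 CPM in MPP1 and at 33.8, 34.9 and 44.1 CPM in MPP4 (log2 change 1.22 ± 0.20, adjusted p = 0.0011). The median of the 9 was 0.92, and all 9 had a positive difference. Of 8 tested HoxB genes 0 were called by edgeR, and 4 had an unadjusted p below 0.05 (19.5% of all genes). With replicate number as a block 2 were called (Hoxb2 and Hoxb5, against 916 of 15545 genes tested), and 2 by DESeq2 (9.24% of all genes). Their median was 1.57, or 1.41 with genes absent from a group at their bound. Gimap4, a GTPase of lymphocytes (chr6:48684549-48692060), averaged 11.1 ± 0.105 CPM (SD, n = 3) in MPP1 and was at 61.2, 131 and 55.7 CPM in MPP4 (log2 change -2.89 ± 0.40, adjusted p = 3.2e-04). Its neighbours Gimap6 and Gimap8 had differences of 0.50 and 1.16 and were not called, and the call on Gimap3 (adjusted p = 0.047) was lost in all 6 fits without 1 library (range over alternatives 0.0020 to 0.13), which leaves 1 of the 2 Gimap calls in each. With replicate number as a block 4 Gimap genes were called (against 916 of 15545 genes tested), Gimap5 and Gimap8 being the added 2 and higher in MPP1.

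The 17 immediate early genes, which rise when tissue is handled, had a median of 0.40. Of these, 0 were called by edgeR, 1 at an unadjusted p below 0.05 (19.5% of all genes) and 0 by DESeq2 (9.24%). With replicate number as a block 2 were called (Dusp1 and Zfp36), against 916 of 15545 genes tested. Their summed level was 3260, 8352 and 19823 CPM in MPP1 replicates 1, 2 and 3 and 2551, 5778 and 14213 CPM in MPP4, with replicate 3 highest and replicate 1 lowest in both populations. Their part in the other results was not tested.

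The same CD48 difference exists between the CD150-positive gates of the study, HSC (CD48-) and MPP2 (CD48+), in libraries that the comparison above does not share. Between WT HSC and WT MPP2, 608 of 15545 genes changed (3.91%), 218 higher in HSC (1.40%) and 390 lower (2.51%). Of the 721 genes called between WT MPP1 and WT MPP4, 711 had the same sign there and 314 were called the same way, 111 higher and 203 lower, which is 314 of the 608. None was called the opposite way. The difference between the 2 steps was called for 0 genes by edgeR, for 560 genes (3.60%) at an unadjusted p below 0.05, and for 44 genes (0.284%) by DESeq2.

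The order of the 4 populations was read gene by gene. Hlf was at 429, 491 and 361 CPM in HSC and 155, 188 and 141 CPM in MPP2, so HSC lay with MPP1 and MPP2 with MPP4, and neither pair separated beyond its spread. Cd79a was at 0.425 to 0.678 CPM in HSC, 1.21 to 2.71 CPM in MPP1, 39.4 to 46.3 CPM in MPP2 and 166 to 261 CPM in MPP4, with no overlap between any 2 neighbours. Il7r was at 0 in all 3 HSC libraries and at 5.38 to 8.50 CPM in MPP2, between MPP1 and MPP4. Flt3 was at 54.4 to 228 CPM in HSC, which overlapped the 211 to 415 CPM in MPP2, and at 324 to 370 CPM in MPP1 and 398 to 413 CPM in MPP4, both within the range of MPP2.

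**Figure D4:**
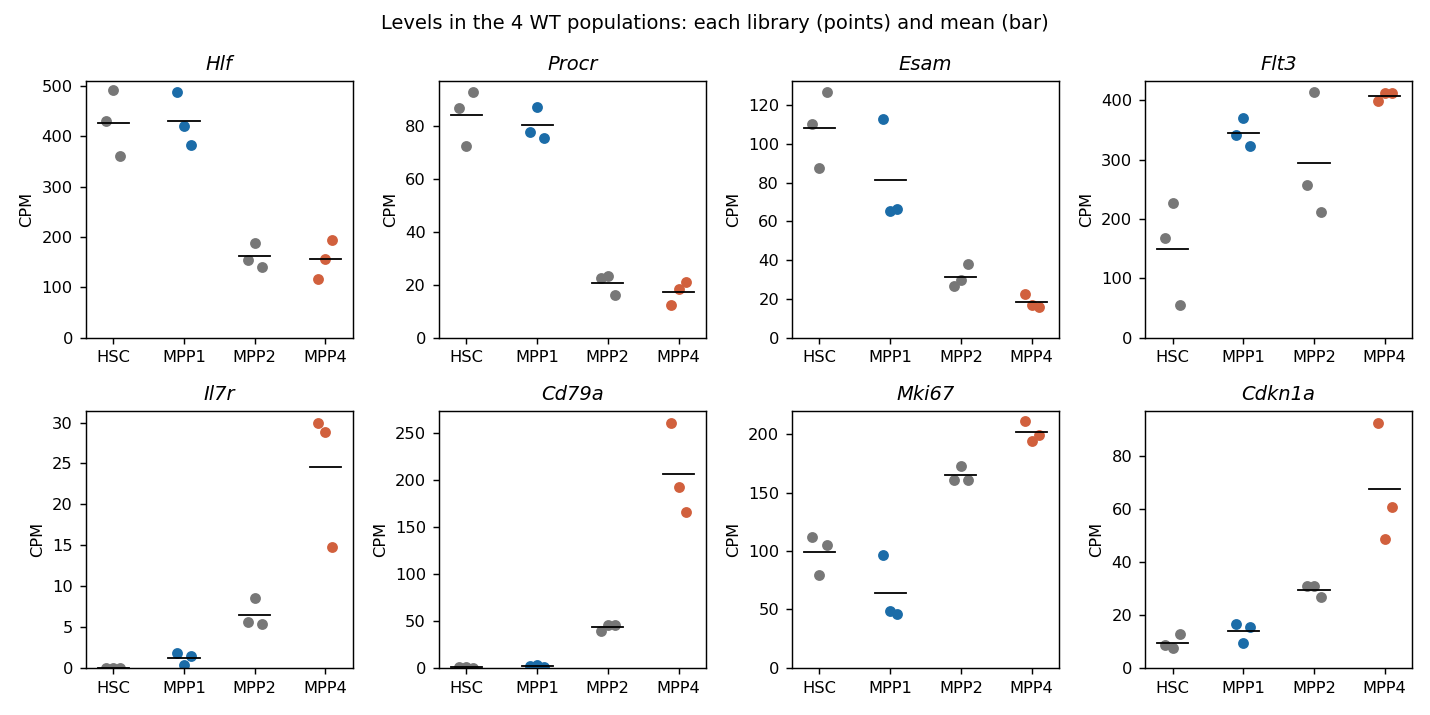
CPM on linear axes starting at 0 for 8 genes in the 4 WT populations, 3 libraries each (points) with their mean (bar). Hlf, Procr and Esam are higher in HSC and MPP1 than in MPP2 and MPP4, whereas Cd79a and Il7r are highest in MPP4, at 166 to 261 CPM and 14.8 to 29.9 CPM.

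Mettl3-deleted cells gave the same comparison in other mice. Their MPP1 and MPP4, sorted by the same gates from pIpC-treated mice that carry the Cre, differed in 4167 genes (26.8%), 2224 higher in MPP1 (14.3%) and 1943 lower (12.5%). Of the 721 genes called in WT, 699 had the same sign and 578 were called the same way, 263 higher and 315 lower, which is 578 of the 4167. Trex1, Mmrn1 and Otub2 were called the opposite way. Mmrn1, a multimerin of platelets whose counts were even in every library, was at 31.7, 53.0 and 76.8 CPM in WT MPP1 and 12.6, 11.1 and 13.5 CPM in WT MPP4. In Mettl3-deleted cells it was at 3.23, 2.16 and 4.13 CPM in MPP1 and 36.7, 30.1 and 39.9 CPM in MPP4. The 2 genotypes were thus reversed in every library, although the WT step alone (log2 change 2.12 ± 0.56, adjusted p = 0.034) lost its call in all fits without 1 library except that without MPP1 replicate 1 (range over alternatives 0.0015 to 0.13).

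A test of the difference between the genotypes' steps called 182 genes (1.17%), 100 with a more positive (0.643%) and 82 with a more negative (0.528%) step in Mettl3-deleted cells, and 30 of the 182 were among the 721. Cd79a was 1 of the 30, with WT values as above and 27.2, 22.3 and 29.8 CPM in Mettl3-deleted MPP1 against 648, 368 and 947 CPM in Mettl3-deleted MPP4. Each Mettl3-deleted MPP1 library was thus above every WT MPP1 library, and the log2 step was -4.63 ± 0.33, a difference of 2.14 ± 0.42 from WT (adjusted p = 0.023). Tie1 went from a log2 step of 1.69 in WT to 3.49 ± 0.32, a difference of 1.80 ± 0.41 (adjusted p = 0.037). The count of 182 rested on single libraries: it was 26, 75 and 57 without WT MPP1 replicate 1, 2 or 3, 120, 49 and 20 without WT MPP4 replicate 1, 2 or 3, 436 without Mettl3-deleted MPP1 replicate 2, and 103 and 24 without Mettl3-deleted MPP4 replicate 2 or 3. The count of 4167 fell to 2743 without Mettl3-deleted MPP4 replicate 3.

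**Figure D5:**
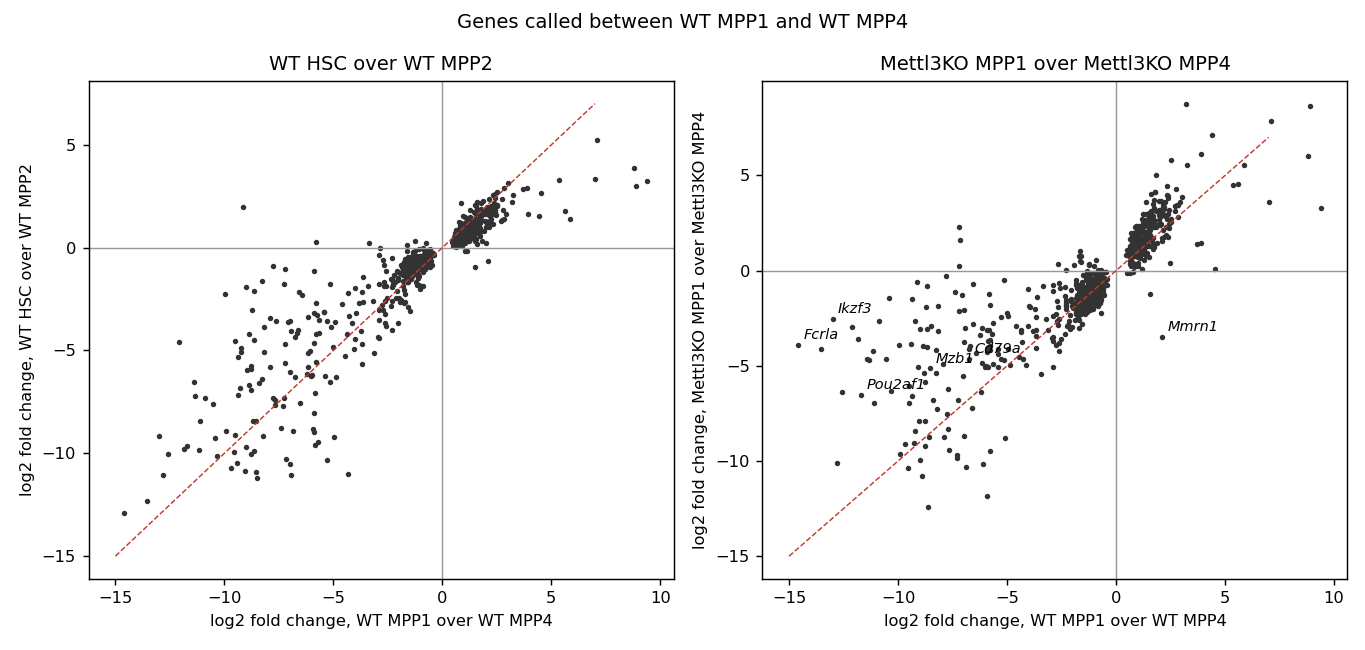
Log2 fold changes of the 721 genes called between WT MPP1 and WT MPP4 (x axis) against the step from MPP2 to HSC in WT cells (left, y axis) and the MPP1 over MPP4 step in Mettl3-deleted cells (right, y axis), with a dashed line at equal change. In the left panel 711 genes and in the right panel 699 genes have the same sign on both axes, and Mmrn1 lies to the right of 0 and below 0 in the right panel.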

How the data were processed

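Poly(A) RNA of sorted cells was amplified with a SMARTer method and sequenced as paired reads of 50 bp, per the labels' protocols. The deposited bulk table names FPKM, but its values are whole-number counts per gene symbol that sum to different totals in each library, and the counts were used as the authors deposited them. The submitters' processing notes name TopHat, Bowtie, Cell Ranger 2.2, mm10 and GRCh37. Their roles, and the tool, annotation and strand setting of the counting, were not given in the sources used here, so overlapping and antisense genes cannot be told apart. The table holds 24063 symbols, 27 of them turned into dates, which were tested but not named. The single-cell libraries were not analysed here.

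Genes were filtered with filterByExpr, scaled by TMM and fitted with edgeR 4.0.16 (limma 3.58.1, R 4.3.3) in quasi-likelihood models over 24 libraries in 8 groups (16 residual degrees of freedom), with Benjamini-Hochberg adjustment over 15545 genes and a threshold of 0.05. CPM use TMM-scaled library sizes. The ± on a log2 change is an approximate standard error, the change divided by the square root of edgeR's F statistic. It thus draws on the spread of all libraries in the fit, not of the groups compared alone. DESeq2 1.42.0, other scalings, no filter, a replicate block, the 6 libraries alone, quality weights, length and GC offsets, and each library left out were the alternatives. Replicate numbers paired the WT samples: deviations of same-numbered MPP1 and MPP4 libraries correlated at 0.276, 0.177 and 0.260 over 9628 genes. The labels do not say what the number marks, and with 3 against 3 libraries an exact two-sided permutation test of 1 gene could not go below 0.1.

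In data simulated for this comparison (15263 genes), 35 of 100 genes changed 2-fold and 89 of 100 changed 4-fold were recovered, with 8 false calls. The changed genes were drawn from those above a minimum mean level, so recovery at lower levels was not simulated. Every group was drawn from the mean over all 24 libraries, apart from the changed genes in WT MPP1. No other difference between groups was thus simulated, unlike in the real libraries. The simulated libraries shared no variation by replicate number, unlike the WT libraries. Named genes are those of the gates, Mettl3, the 12 largest changes in each direction among called genes without overlap at 10 CPM or more in the higher group, up to 4 called members of each list and direction by smallest p, and the 6 genes with the smallest adjusted p in each test of a difference between steps. Other names were chosen after their values were seen. The comparison and the gene lists were chosen with earlier results of these data known. Coordinates are from GENCODE vM21 (GRCm38), which matched 95.0% of tested symbols, and counting error is covered by the 95% intervals alone. A few genes that the naming rule takes in are not reported here.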

Additional observations from a re-analysis of the deposited data

Results flagged for a closer look

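The MPP1 over MPP4 step differed between Mettl3-deleted and WT cells in a test of the difference itself for 182 genes (edgeR, adjusted p under 0.05). Among the genes named here, the step in Mettl3-deleted cells minus that in WT cells was positive, on the log2 scale, for Fcrla (10.69), Ikzf3 (10.49), Pou2af1 (5.18), Slamf7 (4.05), Mzb1 (3.41), Cd79a (2.14), Spsb2 (2.26), Sorbs3 (1.82) and Tie1 (1.80). It was negative for Gcsam (-10.22), Mmrn1 (-5.59), Serpinf1 (-2.72) and H2-Ob (-2.58).

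Fcrla and Ikzf3 had no count in WT MPP1 and Gcsam had none in Mettl3-deleted MPP1, so their fitted differences depend on the prior count and are no bounds. Fcrla was at 2.39, 2.84 and 0 CPM in Mettl3-deleted MPP1. Pou2af1 had 3 counts over WT MPP1 and was at 3.06, 0.304 and 2.79 CPM in Mettl3-deleted MPP1. H2-Ob, a class II chaperone subunit, was at 61.6, 64.9 and 62.7 CPM in WT MPP1 and 9.54, 6.93 and 6.14 CPM in Mettl3-deleted MPP1. Sorbs3, an adaptor of focal adhesions, was at 178, 239 and 199 CPM in WT MPP4 and 90.2, 70.3 and 73.3 CPM in Mettl3-deleted MPP4. Among the 3 replicates of Mettl3-deleted MPP1, replicate 2 had the most Mpo, at 4640 CPM against 318 and 86.8 CPM in replicates 1 and 3, and without it the count was 436.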

How the results depend on the processing

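The count of 721 genes between WT MPP1 and WT MPP4 became 1403 with DESeq2, 1779 when the 6 libraries were fitted alone and 2529 with quality weights, of which 719, 662 and 710 were among the 721. It was 916 with the replicate block, 284 to 395 without 1 library, and within 1.5 times of 721 in the other settings. Leaving out a library leaves fewer samples, and the cause of the other shifts was not tested. The Mettl3-deleted count of 4167 ranged from 2743 to 4999 without 1 library. The count of 182 genes differing between the genotypes' steps was 753 with DESeq2, and 20 to 436 without 1 library. The difference between the CD150- and CD150+ steps had 44 genes with DESeq2 and 0 in every edgeR setting run.

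Of the 91 named genes, 82 were called, and 53 of these stayed called in every setting. Over 1273 values of named genes under the alternatives, 1143 kept their side of the threshold, 115 lost a call, 15 gained one and 0 changed direction. With the replicate block, Pa2g4 lost its call among the named genes and Slamf1 and Serpinf1 gained one. Over all listed genes the block added 36 calls and ended 4 (Pax5, Cd3e, Ifih1 and Pa2g4). In Mettl3-deleted cells same-numbered libraries correlated at 0.120, 0.033 and 0.035, lower than in WT cells. The block was nonetheless fitted within both genotypes, over all their populations. It gave 4301 genes against 4167 and 160 against 182 for the difference between genotypes. At 29045705 to 42123802 counts a library, 3 counts over the group were taken as the floor for genes with no count.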
